A study of Mus musculus with 18 samples.

Results

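The RNAs recovered with an antibody against IMP2, an RNA-binding protein encoded by Igf2bp2, were compared with those recovered with control rabbit IgG from C57BL/6 mouse embryonic fibroblasts (MEFs) that had received interleukin-17 (IL-17, 200 ng/mL) 3 h earlier. There were 3 anti-IMP2 (IMP2_R1 to IMP2_R3) and 3 IgG precipitations (IgG_R1 to IgG_R3), and all 6 came from IL-17-treated cells. Every gene that the authors' deposited table of this comparison lists was taken, which gave 5294 genes. Of these, 5194 were also among the 48709 genes of the RNA-seq count table of the same series, 4721 passed the filter on low counts there, 473 did not, and 100 were not in that table.

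RNA-seq covered 12 libraries in 4 groups of 3. MEFs received control siRNA (labelled Mock) or Imp2 siRNA, and 24 h later were left without cytokine or exposed to 200 ng/mL of IL-17 for 8 h. RIP-seq and RNA-seq therefore differed in time with IL-17 and in transfection, and no input library accompanied the precipitations in the files used here. The labels do not say whether the MEFs were a line or came from several embryos, or whether replicates were separate cultures, so p-values measure the spread between these samples.

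IMP2 belongs to a family of cytoplasmic proteins that bind mRNA and influence its stability, transport and translation. It is also described as a reader of N6-methyladenosine (m6A), a methyl mark on mRNA. IL-17 is a cytokine whose signal in fibroblasts passes through the adaptor Act1 and TRAF proteins and raises chemokines, IL-6, the transcription factors C/EBPβ and C/EBPδ and the NF-κB regulator IκBζ, in part by stabilising their mRNAs.

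The deposited table gives, for each gene, a mean normalised count over the libraries, a log2 fold change of anti-IMP2 over IgG with its standard error, and an adjusted p-value. Its entries all have a log2 fold change from 1 upwards and an adjusted p up to 0.05, so all of its genes are higher with anti-IMP2, and that direction is not a result. Values per precipitation were not analysed here, no test of this comparison was made, and the spread between precipitations enters only through the deposited standard error. Mean counts are not divided by transcript length.

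The adjusted p-values in the deposited table also show how many genes were compared. If the authors used the Benjamini-Hochberg adjustment, the ratio of p to adjusted p gives each gene a rank, and 33174 compared genes made that rank whole, within 1e-06, for 4644 listed genes (87.7%). With the next best number of genes the share was 44.2%. On that reading the deposited table holds 16.0% of the genes compared, and its last gene with a whole rank stands at rank 18220. Up to that rank 5288 genes are listed and 12932 are not, so the listed genes were 29.0% of all genes at that p or below. Up to rank 997, 521 genes (52.3%) were listed. What kept the other genes at these ranks out of the table, and whether they were higher with IgG, was not analysed here. On that reading, absence from the deposited table does not mean that a gene did not differ between the precipitations.

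Enrichment was spread over a wide range. The median log2 fold change in the deposited table was 2.16, with quartiles of 1.62 and 2.80 and a highest value of 6.31. The deposited table has 2254 genes (42.6%) between 1 and 2, 2053 (38.8%) between 2 and 3, 792 between 3 and 4, 169 between 4 and 5 and 26 above 5 on the log2 scale. Just inside the fold limit of the deposited table stood, among others, Rbms3, Polr3e, Ptbp2, Ggnbp2 and Zdhhc9, each at 1.00, and just inside its adjusted p limit stood Casp6, Mir22hg and Irx2. What lay just outside these limits was not analysed here.

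A small set of folds in the deposited table rests on no measurable IgG signal. For 192 genes (3.63%), 2 times the mean count divided by the fold gave nearly the same value, between 2.07 and 2.08, which is what arises when all reads of a gene lie in the anti-IMP2 libraries and the denominator is a fixed number. The next 166 genes implied IgG means between 3.36 and 3.75, and no gene lay between the 2 sets. The folds of the 192 genes depend on that fixed number and are not bounds. They include Zfp938, a zinc finger gene with the largest deposited log2 fold change (6.31, SE 1.19), 8 of the 26 genes above 5, and 108 of the 445 Gm-numbered gene models in the deposited table. Without the 192 genes the median log2 fold change of the deposited table was 2.12.

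RNAs from mitochondrial DNA and from ribosomal protein genes held much of the deposited mean count. In the deposited table, mt-Rnr1, the small mitochondrial ribosomal RNA, had a mean count of 280770 and a log2 fold change of 2.60 (SE 0.515). The respiratory chain mRNA mt-Cytb had a deposited mean count of 104376 and a log2 fold change of 4.05 (SE 0.856). Together 11 mitochondrial genes held 19.1% of the summed mean count of the deposited table, and the cytosolic ribosomal protein genes held 17.2%. The smallest adjusted p in the deposited table, 9.39e-57, belonged to mt-Nd4, a complex I subunit, with a log2 fold change of 4.67 (SE 0.285). It held rank 8 of the genes compared, after 7 that are not listed.

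**Figure D1:**
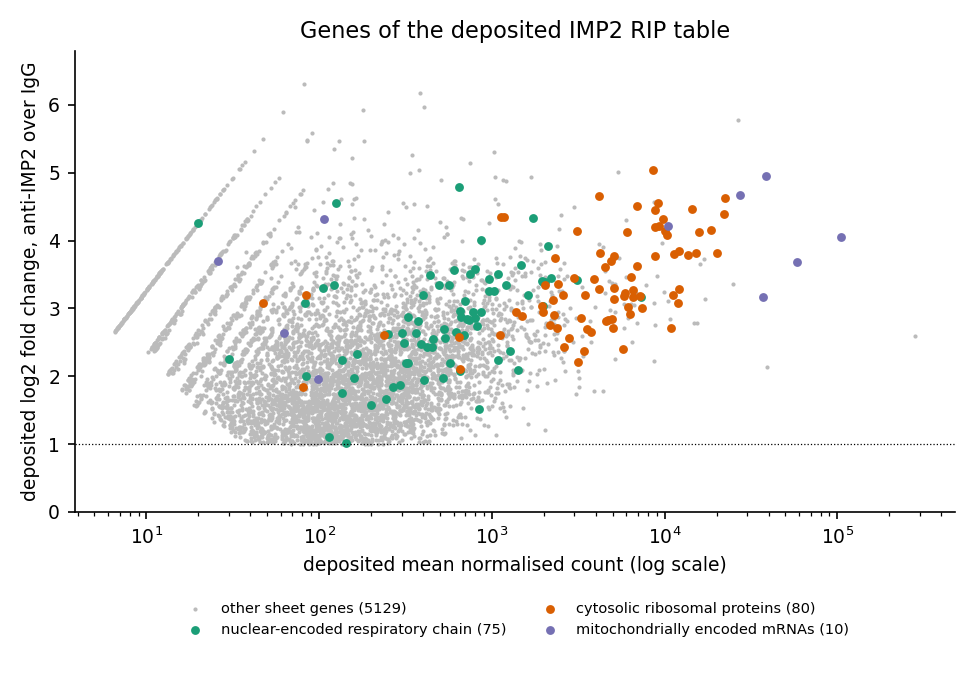
Deposited log2 fold change of anti-IMP2 over IgG against deposited mean normalised count (log axis) for all 5294 listed genes, one point per gene. Ribosomal protein genes and most mitochondrially encoded mRNAs lie to the right of the bulk of the genes, the dotted line marks the limit of 1, and the uppermost diagonal line of points at low counts is the set of 192 genes whose fold follows the mean count.

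A repeat-derived RNA and a microRNA gene carried large folds and are shown with their sequence because both are short noncoding RNAs. Bc1, a short brain-type cytoplasmic RNA that derives from a tRNA-like retroposon, had a deposited mean count of 26590 and a log2 fold change of 5.77 (SE 0.75, adjusted p 4.77e-13). It is the founder of a large repeat family, so its reads are uncertain. Mir703, a microRNA gene, had a deposited mean count of 27.2 and a log2 fold change of 3.82 (SE 1.05). These values are for the gene, and whether any of its reads came from the mature microRNA was not tested. The first 50 bases of Bc1, at chr7:144914470-144914519 on the plus strand, and the mature microRNA, at chr5:98475616-98475636 on the minus strand, are given from RefSeq on GRCm38.p6. Capitals mark the microRNA seed, bases 2 to 8.
Bc1: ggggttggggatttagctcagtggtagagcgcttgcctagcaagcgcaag
mmu-miR-703: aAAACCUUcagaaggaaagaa

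Membership of the deposited table was next described for gene lists, against the 34.5% of the 13702 RNA-seq-tested genes that it holds (4721 genes). The members and lists were chosen with results of these data known, so their shares are descriptions. The 34.5% takes no account of read number or gene span. Of the shortest genes with the most RNA-seq reads (bins given below), 377 of 429 (87.9%) were in the deposited table. Of 79 tested cytosolic ribosomal protein genes, 77 (97.5%) were in the deposited table, with a median log2 fold change of 3.25. The largest among them was Rps21 at a deposited log2 fold change of 5.04 (SE 0.749), followed by Rps28 at 4.66 and Rpl38 at 4.55. Rps12 had the second smallest adjusted p of the deposited table, 2.5e-54, at 4.31 (SE 0.269).

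The nuclear-encoded mitochondrial machinery was listed almost as completely. Of the respiratory chain genes, 74 of 80 tested (92.5%) were in the deposited table, with a median log2 fold change of 2.85. Atp5e and Cox7b, small subunits of ATP synthase and cytochrome c oxidase, stood at deposited log2 fold changes of 4.79 (SE 0.447) and 4.33 (SE 0.341). Atpif1, the inhibitor of ATP synthase, stood at 5.14 (SE 0.444) in the deposited table and Pet100, an assembly factor of cytochrome c oxidase, at 4.94 (SE 0.364). Of the mitochondrial ribosomal protein genes, 69 of 78 (88.5%) were in the deposited table, with a median log2 fold change of 2.50 and Mrps21 highest at 4.31. Of the mRNAs encoded in the mitochondrion itself, 10 of 13 were in the deposited table, with a median of 3.88, while mt-Co1 was not.

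Other housekeeping lists were also above the 34.5% of all tested genes. The deposited table held 24 of 27 proteasome subunits (median log2 fold change 2.05), 18 of 20 cytoskeletal and contractile genes (2.79), 24 of 34 translation factors (2.32) and 9 of 14 glycolysis genes (1.81). Myl12a, a myosin light chain, had a deposited log2 fold change of 3.99 (SE 0.401) and Psma4, a core proteasome subunit, 3.75 (SE 0.441). Of the host genes of small nucleolar RNAs, 12 of 16 were in the deposited table, with a median of 4.07. Zfas1, Snhg12 and Gas5 among these stood at deposited log2 fold changes of 5.27 (SE 0.579), 4.54 (SE 0.641) and 4.50 (SE 0.627). The small nucleolar RNAs themselves were not in the deposited table, and none of the 148 passed the RNA-seq filter. Whether either kind of library could hold such RNAs was not tested, so their absence is no result.

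Matrix, membrane protein and zinc finger genes stood below the 34.5% of all tested genes. The deposited table held 5 of 27 fibrillar collagen and matrix genes (18.5%), 5 of 18 integrin and focal adhesion genes, 52 of 223 Slc transporters (23.3%), 71 of 348 Zfp, Zkscan and Zscan genes (20.4%) and 6 of 29 histone genes. None of 7 nuclear-retained noncoding RNAs was in it, although Neat1 had 339 CPM and Malat1 94.8 CPM in control siRNA plus IL-17. Of tested long noncoding RNAs, 62 of 552 (11.2%) were in the deposited table, against 4535 of 12454 protein-coding genes (36.4%). Their median CPM in control siRNA plus IL-17 was 0.688 and 25.4. It was 1.90 for histone genes, 9.98 for Zfp, Zkscan and Zscan genes, 15.3 for Slc transporters and 1226 for matrix genes. Of all tested genes, 3.43% were in the deposited table up to 2.50 CPM, and 22.5% between 2.51 and 13.6 CPM. Among the longest genes with the most RNA-seq reads (bins given below), 23.2% were in it. The part of read number and of gene span in these shares was not tested. Genes not in the deposited table despite many RNA-seq reads, picked after their values were seen, included Fn1 (11987 CPM), Eef1a1 (8580 CPM), Col1a1 (7763 CPM) and Actg1 (5670 CPM) in the same group.

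**Figure D2:**
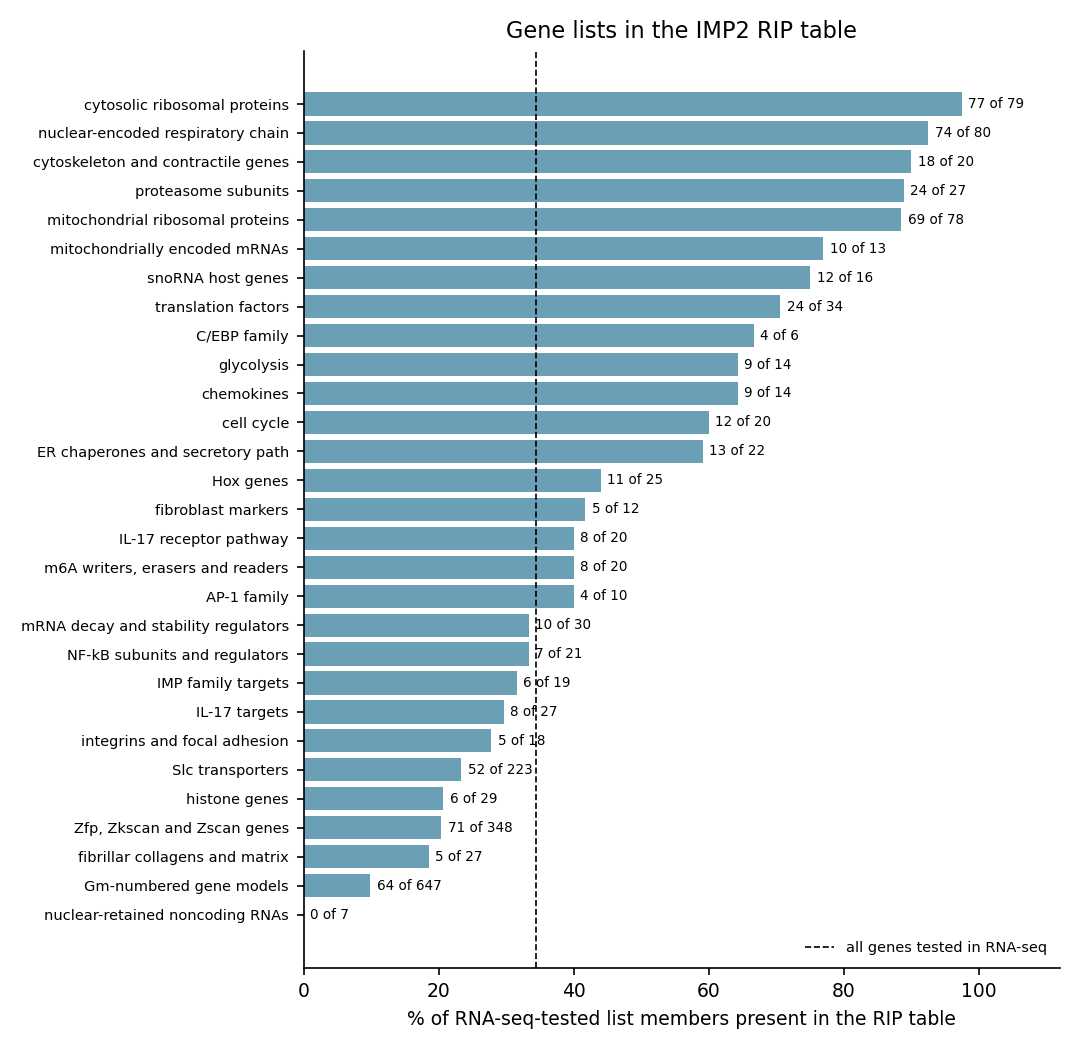
Share of the RNA-seq-tested members of each gene list that are in the deposited RIP table, with the number of members beside each bar and a dashed line at the 34.5% of all tested genes. Ribosomal, respiratory chain, cytoskeletal and proteasome lists stand at 88.5% or more, and matrix genes at 18.5%.

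Both the number of RNA-seq reads and the length of the gene went with membership. CPM, the count scaled to library size, is not divided by length here and was averaged over the 3 control siRNA plus IL-17 libraries. In 5 equal bins of tested genes by CPM, from the lowest to the highest, 3.43%, 22.5%, 40.9%, 50.1% and 55.3% were in the deposited table. In 5 equal bins by gene span, introns included, from the shortest to the longest, the shares were 44.5%, 42.5%, 40.9%, 28.5% and 15.8%. Within the highest bin by CPM, the share went from 87.9% of the shortest genes to 23.2% of the longest. For the shortest genes it was 66.7% in bin 3 by CPM and 82.1% in bin 4. The median CPM of the cytosolic ribosomal protein and proteasome lists (515 and 137) lay in the highest bin. That of the respiratory chain list (60.9) lay in bin 4 and that of the mitochondrial ribosomal protein list (29.0) in bin 3. The part of read number and span in the shares of these lists was not tested.

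The size of the fold had a stronger rank correlation with span than with reads. Across the 4721 tested genes of the deposited table, Spearman's rho of the deposited log2 fold change was -0.36 with gene span and -0.03 with CPM, while the deposited mean count had a rho of 0.74 with CPM. The median deposited log2 fold change was 2.51 in the bin of the shortest genes and 1.68 in that of the longest. Genes are not independent replicates, and points share libraries and read depth. Transcript lengths were not used here, so whether span stands for transcript length was not tested.

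**Figure D3:**
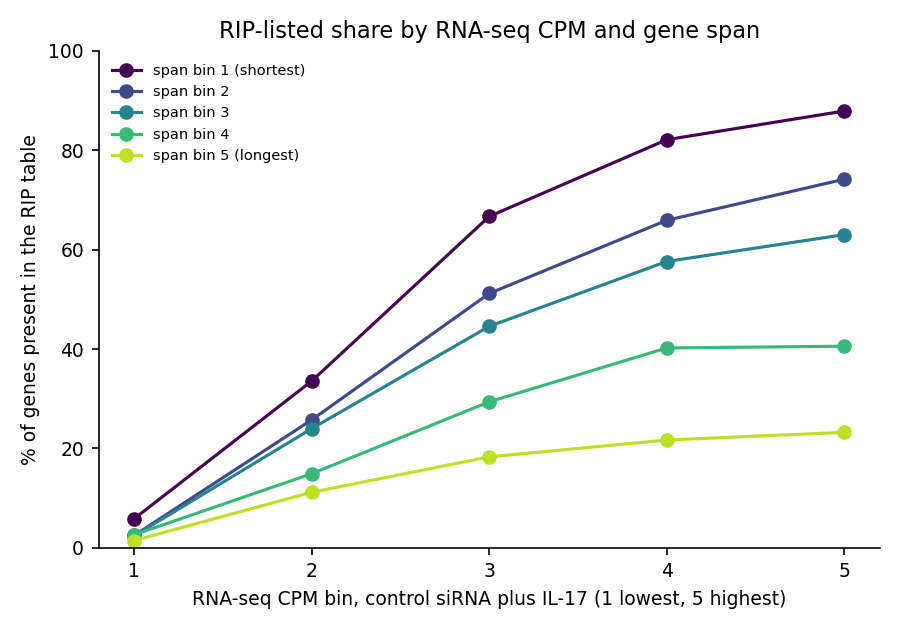
Percent of tested genes in the deposited RIP table for each of 5 bins of RNA-seq CPM in control siRNA plus IL-17 (x axis), with 1 line for each of 5 bins of gene span. The share rises with CPM in every line, and at the highest CPM it lies between 87.9% for the shortest and 23.2% for the longest genes.

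Pseudogenes made up 9.1% of the listed genes with a RefSeq type, whether or not they were tested in RNA-seq, and 0.51% of the genes tested there. Of the 67 pseudogenes tested in RNA-seq 36 (53.7%) were in the deposited table, where 34.5% of all tested genes were. The 467 pseudogenes had a median deposited log2 fold change of 3.03, or 2.88 without the 106 among them that belong to the 192 genes above. Rps24-ps3, a copy of a ribosomal protein gene, had a deposited log2 fold change of 6.18 (SE 0.695) with a mean count of 383, yet had 0 CPM in the control siRNA groups. Hmga1, the gene of a chromatin architectural protein, stood at 5.01 (SE 0.487) in the deposited table and its retrocopy Hmga1b at 5.30 (SE 0.421). Reads of such copies and of their parent genes cannot be told apart, and the 2 tables may treat them differently.

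Among RNAs known as ligands of the IMP family, the deposited table held 6 of 19 tested (31.6%), a share near the 34.5% of all tested genes. They included Hmga1, Ybx1 at a deposited log2 fold change of 3.48 (SE 1.00), Actb at 2.13 (SE 0.705), Ccnd3 at 1.57 (SE 0.246) and Cul1 at 1.52 (SE 0.356). Ccnd1 (646 CPM), Cd44 (936 CPM), Hmga2 (846 CPM) and Myc (171 CPM) were not in the deposited table. H19 and Igf2 had few reads, 2.89 and 4.61 CPM. Igf2bp2 itself was in the deposited table, with a mean count of 493 and a log2 fold change of 1.94 (SE 0.382, adjusted p 2.95e-06), and Igf2bp1 and Igf2bp3 were not.

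Of 27 tested IL-17 target genes, 8 (29.6%) were in the deposited table, near the 34.5% of all tested genes: Cxcl1, Ccl7, Cebpd, Il6, Zc3h12a, Cebpb, Nfkbiz and Bcl3. The chemoattractant Cxcl1 had a deposited log2 fold change of 3.58 (SE 0.922, adjusted p 0.000442) and Ccl7 2.37 (SE 0.805). Cebpd, which encodes C/EBPδ, stood at 1.97 (SE 0.416, adjusted p 1.39e-05) in the deposited table and Cebpb, which encodes C/EBPβ, at 1.56 (SE 0.419, adjusted p 0.000772). Il6 stood at 1.75 (SE 0.55) in the deposited table, Zc3h12a, an endonuclease that degrades inflammatory mRNAs, at 1.71 (SE 0.311), Nfkbiz, which encodes IκBζ, at 1.20 (SE 0.366) and Bcl3 at 1.11 (SE 0.294). The NF-κB inhibitor gene Nfkbia (92.5 CPM), Lcn2 (82.1 CPM) and Ccl2 (274 CPM) were not in the deposited table.

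The other C/EBP genes did not share one size of enrichment. Ddit3, the stress-induced C/EBP member CHOP, had the largest deposited log2 fold change of the family, 5.00 (SE 0.548), and Cebpg stood at 1.77 (SE 0.371). Of the 20 genes of the IL-17 receptor pathway 8 were in the deposited table (40.0%, where 34.5% of all tested genes were), among them Traf5 at 2.88 (SE 0.703), Traf2 at 2.68 (SE 0.79) and Tab2 at 2.38 (SE 0.563). Of 20 m6A writers, erasers and readers 8 were in the deposited table, between 1.19 for Mettl16, an m6A methyltransferase, and 1.94 for Hnrnpc. Of 14 chemokines 9 were in it, with Ccl9 at 3.33 (SE 0.541) and Cxcl12 at 2.78 (SE 0.547).

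A further deposited sheet counted an RNA motif in the listed genes and named the motif-free and motif-bearing ones among 97. By that count 2077 of the 5294 genes (39.2%) carried the motif and 3217 did not. The motif and how it was searched are not given in the sources used here. For genes that the authors call annotated the counts were 1801 with and 3132 without (36.5% with). The row for the 361 genes without a symbol reads 361 and 85, and by difference from the totals 276 of these carried the motif and 85 did not (76.5% with). Among the 97 genes, 36 carried the motif and 61 did not, and their median deposited log2 fold changes were 2.33 and 2.06.

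These 97 genes had been chosen on RNA-seq as well, so their changes are no independent result. The sheet's RNA-seq value, a signed fold, was 2.0 or more in size for all 97 and was below 0 in 59 and above 0 in 38. Its sign matched that of the Imp2 siRNA difference with IL-17 in 97 of 97, and the median distance between the 2 signed folds was 0.0512, against 0.202 for the difference without IL-17. The sheet does not name its contrast. With the motif 22 of 36 had a value below 0 in that sheet, and without it 37 of 61.

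How RNA of the listed genes changed after Imp2 siRNA was then measured. RNA-seq libraries held between 33841054 and 44433699 counts. Titles begin with RB160 in replicate 1 of each group and with NA in replicates 2 and 3, prefixes whose meaning the labels do not give, and the edgeR fit held this prefix as a term. In control siRNA plus IL-17, fibroblast markers summed to 16890 CPM, of it 7763 Col1a1 and 5170 Col1a2. Prrx1 stood at 409 and Pdgfrb at 162 CPM, but Thy1 at 3.04, Lum at 2.60 and Fap at 0.0896 CPM. Replicates 1 to 3 differed, with Lum at 7.00, 0.451 and 0.350 CPM and Thy1 at 0.275, 5.52 and 3.33 CPM. Markers of macrophages summed to 14.7, endothelium to 1.06, nerve and glia to 53.4, epithelium to 78.2 (76.9 of it Krt19) and red cells to 0.0437 CPM. In bulk RNA, fewer cells of a type and less RNA per cell cannot be told apart.

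The targeted gene was lower in every Imp2 siRNA library. Igf2bp2 read 134, 167 and 146 CPM in the control siRNA libraries and 24.6, 22.3 and 18.6 CPM in the Imp2 siRNA libraries. With IL-17 it read 139, 166 and 156 CPM in the control and 28.2, 24.3 and 18.4 CPM after Imp2 siRNA. The groups did not overlap, and Igf2bp2 fell by 2.77 and by 2.70 on the log2 scale (edgeR adjusted p = 2.71e-06 and 3.01e-06).

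The listed genes as a group did not move one way. Without IL-17, 732 of the 4721 (15.5%) were lower and 875 (18.5%) higher with Imp2 siRNA, where 16.4% and 16.1% of all tested genes were. With IL-17, 777 (16.5%) were lower and 894 (18.9%) higher, where 16.6% and 16.7% of all tested genes were. Their median log2 differences were 0.01 and 0.01, against -0.01 and -0.02 for the 8981 tested genes not in the deposited table. In both contrasts 605 listed genes (12.8%) were lower and 724 (15.3%) higher, where 13.2% and 13.3% of all tested genes were. Passing in opposite directions was seen for 0 of the listed and 0 of all tested genes. Without Imp2siRNA replicate 3 the counts without IL-17 were 483 lower and 677 higher. Without Imp2siRNA_IL17 replicate 3 the counts with IL-17 were 500 lower and 690 higher.

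The split of calls depended on the prefix term. Without it, 75 listed genes were lower and 32 higher in the first contrast, so 70.1% of calls were lower against 45.6% with the term. In the second contrast without the term 78 were lower and 33 higher, or 70.3% of calls against 46.5%. Among genes not in the deposited table the lower share of calls without the term was 52.0% and 53.1%. By DESeq2 with the term, 775 were lower and 899 higher, and 801 and 916 with IL-17.

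Changes of at least 2-fold made up a small share of the listed genes. Of them 108 (2.29%) passed at that size without IL-17 and 107 (2.27%) with IL-17, against 537 (5.98%) and 572 (6.37%) of the genes not in the deposited table. The median CPM in control siRNA plus IL-17 was 44.6 for the listed and 11.4 for the other genes, and its part in this difference was not tested. The deposited fold did not go with the change: Spearman's rho with the Imp2 siRNA log2 difference was 0.03 without and 0.03 with IL-17 over 4721 genes. The median log2 difference without IL-17 was 0.01 for listed genes with a deposited log2 fold change of 1 to 2, 0.02 for 2 to 3, 0.02 for 3 to 4, 0.07 for 4 to 5 and -0.01 for the 11 genes above 5.

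**Figure D4:**
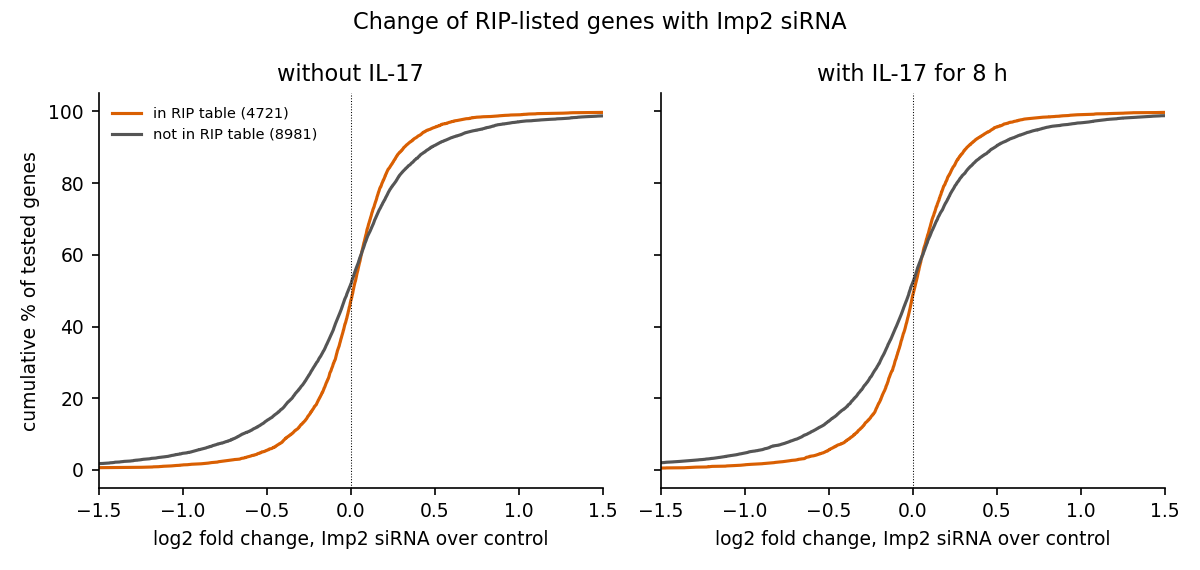
Cumulative percent of tested genes by log2 fold change of Imp2 siRNA over control siRNA, without IL-17 (left) and with IL-17 for 8 h (right), for the 4721 genes in the deposited RIP table and the 8981 not in it. Both lines cross 50% close to 0, at medians of 0.01 and -0.01 on the left and 0.01 and -0.02 on the right, and the line of the listed genes is the steeper.

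Of 77 listed cytosolic ribosomal protein genes 3 were lower and 2 higher without IL-17, and 5 and 3 with it. None of the 10 listed mitochondrially encoded mRNAs passed in either contrast. Of the 74 respiratory chain genes 5 were lower and 10 higher in each contrast. Of all tested genes 16.4% were lower and 16.1% higher without IL-17, and 16.6% and 16.7% with it. Without the prefix term 1 ribosomal protein gene was lower in each contrast, and 0 genes of these 3 lists were higher. Rps12 read 484, 557 and 586 CPM in control siRNA and 521, 598 and 616 CPM in Imp2 siRNA libraries, and the groups overlapped (log2 difference 0.09, edgeR adjusted p = 0.285). A p that misses the threshold does not show that these RNAs stayed at one level.

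Of 18 listed cytoskeletal genes 14 were higher without IL-17 and 15 with it, and 0 were lower, where 16.1% and 16.7% of all tested genes were higher. Of the 18, 0 passed in either contrast without the prefix term. Acta2, smooth muscle actin, rose by a log2 difference of 1.01 and 1.08 (edgeR adjusted p = 1.23e-06 and 6.52e-07) and Myl6 by 0.53 and 0.54. Of 9 listed glycolysis genes 8 and 7 were higher and 1 lower, Gpi1, and Gapdh rose by 0.48 in both contrasts (adjusted p = 1.51e-05 and 1.43e-05). Of 12 listed snoRNA host genes 6 and 5 were higher and 0 lower, with Snhg12 up by 0.59 and 0.39. Without the prefix term 0 of the 9 glycolysis genes passed in either contrast, and of the snoRNA host genes 1 was higher without IL-17 and 0 with it.

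Of the 8 listed IL-17 targets 6 were lower and 0 higher in each contrast, of 9 chemokines 5 were lower and 0 higher, and of 7 NF-κB genes 6 and 5 were lower and 1 was higher, Rela. Of all tested genes 16.4% were lower without IL-17 and 16.6% with it. Without the prefix term 3 of the 8 IL-17 targets and 3 of the 9 chemokines were lower in each contrast, and 4 and 3 of the 7 NF-κB genes were, with 0 higher. These lists share Cxcl1, Ccl7, Nfkbiz and Bcl3, and none was chosen without results of these data.

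Cxcl1 read 23.5, 39.4 and 34.1 CPM in control siRNA and 4.8, 5.23 and 4.2 CPM in Imp2 siRNA libraries. With IL-17 it read 220, 201 and 189 CPM in control siRNA and 53.9, 43.0 and 29.0 CPM in Imp2 siRNA libraries. All Imp2 siRNA libraries were below all controls of the same treatment, and Cxcl1 fell by 2.77 and 2.27 on the log2 scale (edgeR adjusted p = 0.000242 and 0.000253).

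Cebpd read 19.4, 72.3 and 54.0 CPM in control siRNA and 13.2, 19.1 and 15.0 CPM in Imp2 siRNA libraries. With IL-17 it read 62.9, 129 and 126 CPM in control siRNA and 37.2, 46.8 and 36.3 CPM in Imp2 siRNA libraries. The groups did not overlap, and the RB160 control library was the lowest control each time. Cebpd fell by 1.50 (adjusted p = 0.0111) and by 1.31 (adjusted p = 0.0153), and no longer passed without the prefix term (adjusted p = 0.0903 and 0.14) or, without IL-17, in a fit of only the compared groups (0.0606). Leaving out Imp2siRNA replicate 3 gave an adjusted p of 0.0505 without IL-17, and leaving out Imp2siRNA_IL17 replicate 2 or 3 gave 0.0576 or 0.0598 with IL-17.

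Cebpb read 18.1, 27.6 and 25.8 CPM in control siRNA and 15.7, 24.8 and 22.3 CPM in Imp2 siRNA libraries, and these groups overlapped (log2 difference -0.19, adjusted p = 0.276). With IL-17 it read 35.0, 32.5 and 34.2 CPM in control siRNA and 20.3, 26.3 and 22.7 CPM in Imp2 siRNA libraries, without overlap, and fell by 0.57 (adjusted p = 0.00367, or 0.193 without the prefix term). The difference between its 2 siRNA effects was -0.38 on the log2 scale and did not pass (edgeR adjusted p = 1).

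Among the other listed targets, Ccl7 fell by 2.07 and 1.48 (edgeR adjusted p = 0.00535 and 0.017) and Il6 by 1.89 and 2.25 (adjusted p = 0.0452 and 0.00902). With IL-17, Ccl7 no longer passed without Imp2siRNA_IL17 replicate 2 (adjusted p = 0.0683), Imp2siRNA_IL17 replicate 3 (0.0703) or mock_IL17 replicate 3 (0.053). Without IL-17, Il6 no longer passed when any one of 9 libraries was left out, and its adjusted p then lay as high as 0.133. In the fit without the prefix term Il6 passed in neither contrast (adjusted p = 0.134 and 0.075). Bcl3 fell by 1.43 and 1.20 (adjusted p = 9.72e-05 and 0.000191). Nfkbiz fell by 0.47 without IL-17 (adjusted p = 0.0188) and differed by -0.22 with it (adjusted p = 0.189), while Zc3h12a differed by 0.21 and 0.27 and did not pass. The Nfkbiz call without IL-17 was lost without Imp2siRNA replicate 2 (adjusted p = 0.0702), Imp2siRNA replicate 3 (0.0511), mock replicate 2 (0.0686) or mock replicate 3 (0.0633), and without the prefix term (0.401).

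Ddit3 went the other way from Cebpd. It read 45.6, 44.2 and 39.6 CPM in control siRNA and 65.0, 65.6 and 72.1 CPM in Imp2 siRNA libraries, without overlap, and rose by 0.65 (edgeR adjusted p = 0.000204). With IL-17 it rose by 0.60 (adjusted p = 0.000336). Cebpg rose by 0.44 and 0.34 (adjusted p = 0.000787 and 0.00424), calls that were lost without the prefix term (adjusted p = 0.0838 and 0.177). The effect of Imp2 siRNA with IL-17 minus that without passed for 0 of the listed genes by edgeR, and 23 of 4721 (0.487%) had an unadjusted p under 0.05. Of all 13702 tested genes 0 passed and 141 had an unadjusted p under 0.05. If no gene differed, a share of about 0.05 would fall under that p, and both shares were lower. The 0 therefore does not show that the effect of Imp2 siRNA was the same with and without IL-17. No other tool was run on this difference between siRNA effects.

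**Figure D5:**
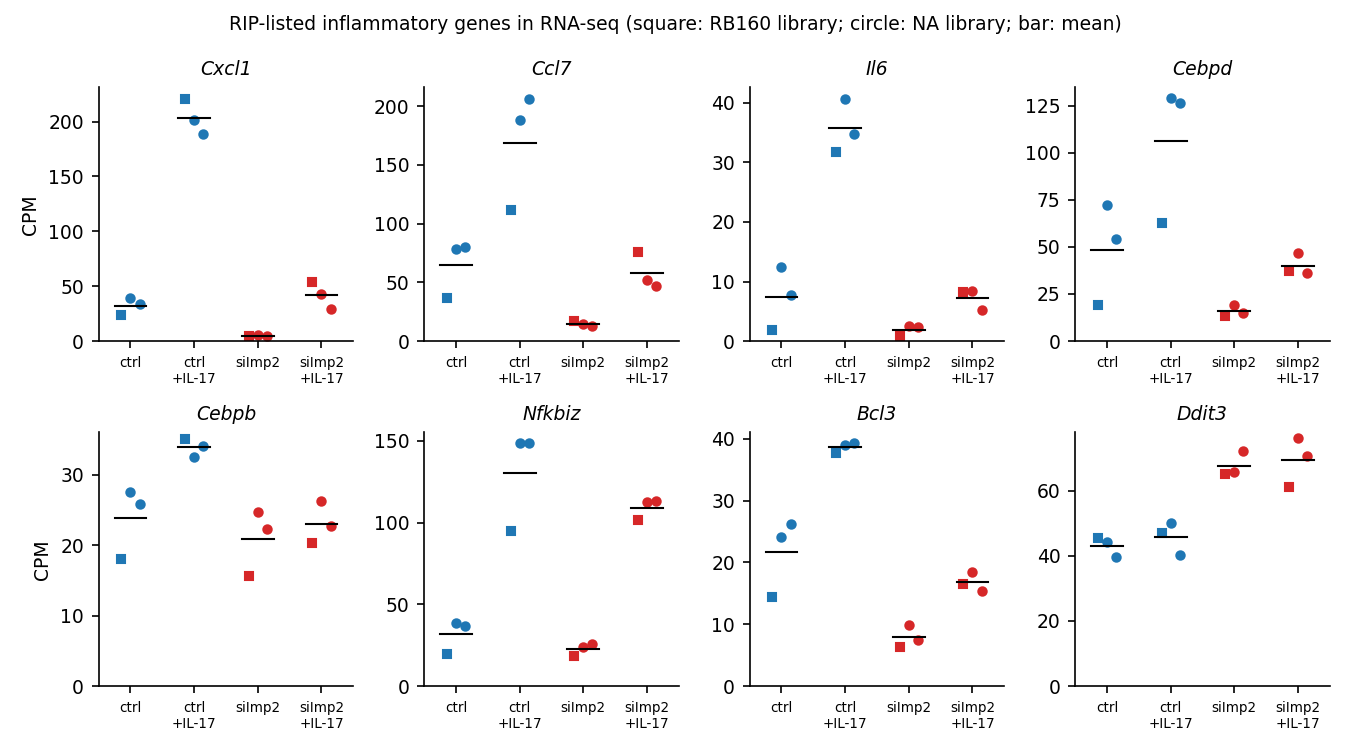
CPM in each RNA-seq library for 8 genes of the deposited RIP table (linear axes from 0), in control siRNA (blue) and Imp2 siRNA (red) groups without and with IL-17. Squares are RB160 libraries, circles NA libraries and bars means. Cxcl1, Ccl7, Il6, Cebpd and Bcl3 lie lower after Imp2 siRNA, with RB160 controls often lowest, and Ddit3 lies higher.

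Genes outside these lists also fell. Serpina3g, a protease inhibitor gene, fell by 2.80 and 2.33 (edgeR adjusted p = 2.24e-05 and 4.02e-05), Penk, the proenkephalin gene, by 2.62 and 2.82, and Il1rn, the IL-1 receptor antagonist, by 2.33 and 2.38. Without the prefix term Serpina3g (adjusted p = 0.312 and 0.353) and Il1rn (0.369 and 0.352) no longer passed, while Penk did. Dcn, which encodes the proteoglycan decorin, fell by 2.65 and 2.83 (adjusted p = 2.94e-05 and 1.21e-05). It read 31.7, 7.24 and 4.51 CPM in control siRNA and 6.95, 0.556 and 0.612 CPM in Imp2 siRNA libraries. The RB160 libraries were the highest of each group, the groups overlapped, and without the prefix term the adjusted p was 0.447 and 0.38.

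Nppb, the natriuretic peptide B gene, rose with Imp2 siRNA. It read 1.74, 3.19 and 2.54 CPM in control siRNA and 17.9, 39.7 and 48.4 CPM in Imp2 siRNA libraries, without overlap, and rose by 3.77 (edgeR adjusted p = 8.47e-09), and by 3.24 with IL-17 (adjusted p = 1.83e-08). Acta1, skeletal muscle actin, rose by 1.96 and 2.20 (adjusted p = 0.00116 and 0.000683), Ccn2, a matricellular growth factor gene, by 1.66 and 1.60 (adjusted p = 0.000501 and 0.000593) and the integrin subunit Itga5 by 1.32 and 1.31 (adjusted p = 1.21e-07 and 1.14e-07). Acta1 (adjusted p = 0.074 and 0.0544), Ccn2 (0.368 and 0.405) and Itga5 (0.341 and 0.356) no longer passed without the prefix term, while Nppb did. The deposited log2 fold changes were 2.26 for Nppb (SE 0.425), 1.92 for Acta1 (SE 0.349), 2.30 for Ccn2 (SE 0.814) and 1.21 for Itga5 (SE 0.524).

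IL-17 for 8 h changed few listed genes by this test. In control siRNA cells 13 of 4721 rose and 5 fell, where 0.234% and 0.175% of all tested genes did. Nfkbiz rose by 2.05 (edgeR adjusted p = 9.87e-05), Cxcl1 by 2.65 (adjusted p = 0.00912), Zc3h12a by 1.97 (adjusted p = 0.0166) and Bcl3 by 0.87 (adjusted p = 0.0426). Mt1, a metallothionein, rose by 0.59 and Ier3, an immediate early response gene, by 0.74. The others that rose were Cyp7b1, A4galt, Gclm, Mkx, Fgfr1op, Dstn and Stx6, and Sorbs3, Olfml2b, Id2, Klhdc8a and Bdnf fell by 0.35, 0.36, 0.35, 0.48 and 0.36. Cebpd differed by 1.18 (adjusted p = 0.229), Cebpb by 0.54 (adjusted p = 0.112) and Il6 by 2.41 (adjusted p = 0.125) and did not pass.

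These IL-17 counts depended on single libraries and on the tool. DESeq2 gave 39 higher and 32 lower listed genes, and the fit without the prefix term gave 1 and 0. The counts of higher and lower were 23 and 15 without Imp2siRNA_IL17 replicate 1, 20 and 12 without mock replicate 2, 8 and 1 without Imp2siRNA replicate 2, 7 and 2 without Imp2siRNA replicate 3 and 7 and 2 without Imp2siRNA_IL17 replicate 2. They were 5 and 0 without mock replicate 1, 6 and 0 without mock replicate 3, 2 and 0 without mock_IL17 replicate 1, 5 and 3 without mock_IL17 replicate 2 and 4 and 0 without mock_IL17 replicate 3. Cxcl1 did not pass without mock_IL17 replicate 1 (edgeR adjusted p = 0.0634). Except Nfkbiz, every other gene named above as risen or fallen with IL-17 also lost the call without at least one library. Bcl3 was lost in the fit of only the compared groups as well (adjusted p = 0.109). Nfkbiz kept its call whichever library was left out, but not without the prefix term (adjusted p = 0.11).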

How the data were processed

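RIP-seq of IMP2 and IgG precipitations (3 each) and RNA-seq of 12 MEF libraries were used. The authors deposited raw counts per gene for RNA-seq, and whole numbers with different totals were used as such. For RIP-seq they deposited, per the file headers, a mean normalised count over libraries (a signal), a log2 fold change with its standard error, a Wald score, a p-value and an adjusted p-value. A further deposited sheet held 97 genes with a signed RNA-seq fold, given as a score, and a RIP value equal to 2 times the log2 fold change in 97 of 97 genes. STAR, DESeq2, CASAVA 1.4 and the mm10 build appear in the submitters' processing notes without a stated role. Kits were Nextera XT for RNA-seq and SMART-Seq v4 for RIP-seq, per the labels' protocols. Strand is not stated, so reads of antisense partners or near-identical copies may be mixed.

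Of the 5294 IDs, 5289 matched the gene name table, which named 357 of the 361 without a symbol. Motifs and transcript lengths were not searched. RNA-seq counts were tested with edgeR 4.0.16 in R 4.3.3 (quasi-likelihood, TMM, filterByExpr, all 12 libraries, title prefix as an additive term), with Benjamini-Hochberg adjustment over 13702 genes and a threshold of 0.05. CPM used TMM-adjusted library sizes. Alternatives were DESeq2 1.42.0, other scaling, filters, samples and stricter RIP limits. The script was tested on simulated data without a prefix effect, which cannot test the calls that depend on the prefix term. Named genes were the largest by fold, count and score, those nearest the limits, list members (the 8 largest of longer lists) and the largest changes at a mean of 5 CPM or more. Members and lists were chosen with earlier results of these data known. The 12 libraries' depth limits low-count genes.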

Additional observations from a re-analysis of the deposited data

How the results depend on the processing

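No paired analysis was possible because the RIP-seq values come from the authors' comparison with no library values, and the RNA-seq labels give no replicate number shared by the groups, so replicates were numbered in accession order. Among calls of named genes past the threshold, 0 reversed under the RNA-seq alternatives run. Without the prefix term 290 of these calls were lost and 53 were kept. With DESeq2 2 were lost and 341 kept, and with RLE scaling 2 were lost and 341 kept. Without the prefix term, listed genes lower and higher with Imp2 siRNA numbered 75 and 32 without IL-17 and 78 and 33 with it, and 0 fell and 1 rose with IL-17. With IL-17 alone, DESeq2 gave 32 lower and 39 higher, and a fit of only the compared groups 21 and 34. Testing without the low-count filter, which adds genes, gave 13 lower and 18 higher with IL-17 alone. The median difference with Imp2 siRNA and IL-17 was then 0.0146 in place of 0.00678, and 23.4% of tested genes were in the RIP table.

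Restricting the RIP table lowers counts by construction. At a RIP log2 fold change of at least 2 and adjusted p of at most 0.01, 339 were lower and 425 higher with Imp2 siRNA, 353 and 431 with IL-17 added, 2 and 6 with IL-17 alone, and 16.9% of tested genes were listed. At a RIP mean count of at least 100, 477 were lower and 635 higher without IL-17, and 512 and 629 with it. At that limit 22.5% of tested genes were listed. Leaving out 1 library at a time, with Imp2 siRNA 483 to 766 were lower and 677 to 910 higher, with IL-17 added 500 to 801 and 690 to 971, and with IL-17 alone 0 to 15 and 2 to 23. Median log2 differences then lay from 0.0105 to 0.0259, from 0.000881 to 0.0155 and from -0.0104 to 0.0046. The cause of these shifts was not tested. RIP-seq depth is unknown here.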
